A study of Mus musculus with 8 samples.

Results

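Replication-dependent histone genes supply the H1, H2A, H2B, H3 and H4 proteins that package newly copied DNA. They were taken here as every gene of the count files whose symbol starts with Hist1h, Hist2h, Hist3h or Hist4h, and 70 of the 53647 gene identifiers met that rule. By symbol, 6 genes belong to the linker histone class H1, 20 to H2A, 19 to H2B, 12 to H3 and 13 to H4, pseudogenes included. By cluster, 56 belong to Hist1 on chromosome 13, 10 to Hist2 on chromosome 3, 3 to Hist3 on chromosome 11 and 1 to Hist4 on chromosome 6. In the annotation 67 are protein-coding and 3 are pseudogenes (Hist1h2aj and Hist1h2al in H2A, Hist3h2bb-ps in H2B).

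RNA was sequenced from mouse bone marrow cells sorted as Lin- CD127+, which lack markers of mature blood lineages and carry the interleukin 7 receptor alpha chain. The 4 wild-type libraries (WT1 to WT4) have the genotype Trerf1 +/+ and the 4 knockout libraries (KO1 to KO4) have the genotype spelled Tref1 -/- in the labels. Trerf1 encodes a zinc finger transcriptional regulator. Age, sex, strain, the design of the Trerf1 allele and any pooling of animals are not given in the sources used here. Whether each library is a separate animal is not stated in the labels, and the p-values below then reflect only library-to-library spread, which may be technical.

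Most of these genes are switched on together when a cell enters S phase. Transcription is organised by NPAT at nuclear bodies near the clusters. Most of their messages are not polyadenylated: they end just after a short conserved stem-loop, which SLBP binds and next to which the U7 ribonucleoprotein directs the cut. Some of these genes also make longer, polyadenylated messages, chiefly in cells that have left the cycle. Per the labels' protocols the libraries came from 200 ng of total RNA and a low-input cDNA kit. As background, that kit primes cDNA at poly(A) tails, so messages that end at the stem-loop are poor templates and the levels below are those of RNA that the kit could copy.

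The stem-loop and its surroundings are shown first, because the processed message ends beside it. The sense strand of the annotated transcripts was searched for GG, NN, CTTTT, N, AG, NN and CC in a row, where N is any base. This pattern was present in 44 of the 70 genes and in 89 of all 55450 annotated genes (0.161%). Among the 48 histone genes with at least 60 annotated bases after the stop codon, 42 held it. The sites below are from GENCODE M21 transcripts on GRCm38, 5′ to 3′, written in DNA letters, with the stem-loop in capitals.
Hist1h1c (H1): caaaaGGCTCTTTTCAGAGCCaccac
Hist3h2a (H2A): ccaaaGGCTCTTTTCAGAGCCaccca
Hist1h2ap (H2A): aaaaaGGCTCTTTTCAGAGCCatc
Hist1h2ao (H2A): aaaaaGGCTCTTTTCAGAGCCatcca
Hist2h2ac (H2A): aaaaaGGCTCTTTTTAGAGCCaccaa
Hist1h2bg (H2B): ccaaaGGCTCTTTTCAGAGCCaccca
Hist1h3d (H3): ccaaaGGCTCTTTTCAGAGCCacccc
Hist1h4d (H4): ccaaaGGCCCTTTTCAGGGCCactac
Hist1h4i (H4): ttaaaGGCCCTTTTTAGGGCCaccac

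The form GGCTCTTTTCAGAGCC was the most frequent, with 26 genes. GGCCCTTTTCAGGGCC was found in 7 genes, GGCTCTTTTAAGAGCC in 6, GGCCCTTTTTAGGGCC in 2, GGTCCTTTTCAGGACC in 2 and GGCTCTTTTTAGAGCC in 1. The stem-loop began a median of 31 bases after the stop codon (21 to 58). In 22 genes the annotated transcript ran on for more than 100 bases past it, up to 4884, and in the other 22 it ended within 100 bases. The Hist1h2ap transcript stops 3 bases past its stem-loop.

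The promoters of Hist1h2ae and Hist1h2bg are shown because these neighbouring genes are read in opposite directions from one stretch of DNA. Both genes were highest in KO2 (values below), which was the highest library for 36 of the 50 tested histone genes. The RefSeq window of Hist1h2bg, from 250 bases before to 50 bases after its start, is chr13:23571150-23571449 on GRCm38.p6, plus strand. The Hist1h2ae window is chr13:23571171-23571470, minus strand, and covers nearly the same bases. Capitals mark the CCAAT box (CCAAT or its reverse), the octamer bound by POU factors such as Oct1 (ATTTGCAT) and the TATA box core (TATAAA).
Hist1h2bg promoter: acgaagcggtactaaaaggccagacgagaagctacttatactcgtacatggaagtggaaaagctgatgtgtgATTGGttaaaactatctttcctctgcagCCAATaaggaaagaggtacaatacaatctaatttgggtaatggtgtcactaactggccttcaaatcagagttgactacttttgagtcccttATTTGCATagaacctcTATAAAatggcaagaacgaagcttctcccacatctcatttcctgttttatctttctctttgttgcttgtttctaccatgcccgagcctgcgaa

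RefSeq promoter windows were found for 62 of the 70 genes. On either strand, TATAAA was present in 35 of them (56.5%), against 14.2% of all 27025 promoter windows of the same length. ATTTGCAT was present in 13 (21.0%, against 1.8%), all of them H2A (7 of 18) or H2B (6 of 16) genes. CCAAT was present in 53 (85.5%, against 37.9%): in every H1, H2A, H2B and H3 window and in 3 of 12 H4 windows. None of the 3 patterns is contained in another, although their end letters can overlap. The 62 windows are not all separate stretches of DNA. Divergent neighbours such as Hist1h2ae and Hist1h2bg have overlapping windows, so the same site can count for both genes. A match is a description of the letters and not of a bound site.

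The libraries held 31109744 to 73414626 counts. Levels are given as CPM, counts per 1000000 counts after scaling by the trimmed mean of M values (TMM). Trerf1 was at 29.0, 32.1, 27.1 and 22.3 CPM in WT1 to WT4, and at 13.4, 12.8, 12.1 and 22.1 CPM in KO1 to KO4. The library labelled KO4 was at the level of WT4, and results that involve it rest on its label. Its fold change was -0.87 ± 0.20 (log2, SE; edgeR quasi-likelihood adjusted p = 0.999). The list called gate holds Il7r, which encodes CD127, and Ly6d, Dntt, Flt3 and Ptprc, which are not part of the stated sort. The summed level of this list was 6922 to 8337 CPM in WT and 7205 to 10313 CPM in KO libraries, and all 5 genes were detected. No gene of the 12 marker lists was called. Summed erythroid markers, 10 genes, ranged from 53.1 to 668 CPM in WT and from 47.5 to 259 CPM in KO libraries, with all 10 estimates below 0. Markers of type 2 innate lymphoid cells (ILC2) ranged from 266 to 584 CPM in WT and from 177 to 372 CPM in KO libraries, with all 8 estimates below 0, a median log2 fold change of -0.83 and 3 at an unadjusted p under 0.05. Monocyte and macrophage markers ranged from 299.9 to 459 and from 412 to 574 CPM, with 7 of 7 estimates above 0. Neutrophil markers ranged from 170 to 264 and from 148 to 299.9 CPM, with 6 of 6 tested estimates above 0 and a median of 1.39. The other lists had estimates on both sides of 0, such as T cell markers with 7 of 8 above. Of all genes tested, 51.7% had estimates above 0, and at an unadjusted edgeR p under 0.05 1.04% were higher and 0.93% lower.

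Summed over the 70 genes, histone RNA was at 377, 458, 423 and 314 CPM in WT1 to WT4 and at 362, 568, 362 and 370 CPM in KO1 to KO4. KO2 stood above every other library, the other 3 knockout libraries lay within the wild-type range, and WT4 was the lowest. The group means were 393 ± 62.3 CPM in WT and 415 ± 102 CPM in KO (SD, n = 4 each), a log2 ratio of 0.08, and the ranges overlapped. Without KO2 the log2 ratio was -0.11, and without WT4 it was -0.01. In a bulk library, fewer S phase cells and less histone RNA per cell cannot be told apart.

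By gene counts, the core histone H2B gave the largest share of the sum, 36.5% in WT, at 144 ± 24.2 CPM in WT and 150 ± 33.9 CPM in KO. H2A was at 110 ± 15.7 and 117 ± 27.4 CPM, and the linker histone H1 at 91.7 ± 15.8 and 95.6 ± 24.0 CPM. H4 was lower, at 36.6 ± 6.74 and 40.9 ± 11.8 CPM. H3 was the lowest, at 10.8 ± 2.98 and 12.1 ± 6.37 CPM, or 2.74% of the wild-type sum. WT and KO ranges overlapped in all 5 classes, and KO2 was the highest library in each. By RSEM, described below, H2A gave the largest share instead, 78.6% in WT against 11.5% for H2B. With the gene Hist1h2ap left out, the H2A share by RSEM was 42.8% in WT.

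By cluster, Hist1 was at 268 ± 52.3 CPM in WT and 289 ± 92.8 CPM in KO. Hist3, with 3 genes, was at 70.3 ± 10.6 and 73.5 ± 8.13 CPM, and Hist2, with 10 genes, at 51.3 ± 11.1 and 49.7 ± 8.14 CPM. Hist4h4, the lone gene of its cluster, was at 3.85 ± 1.35 and 3.43 ± 1.71 CPM. KO2 was highest for Hist1 (427 CPM) and Hist3 (84.4 CPM) but not for Hist2, where WT1 was highest (63.8 CPM), nor for Hist4h4, where KO1 was highest (5.30 CPM).

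**Figure D1:**
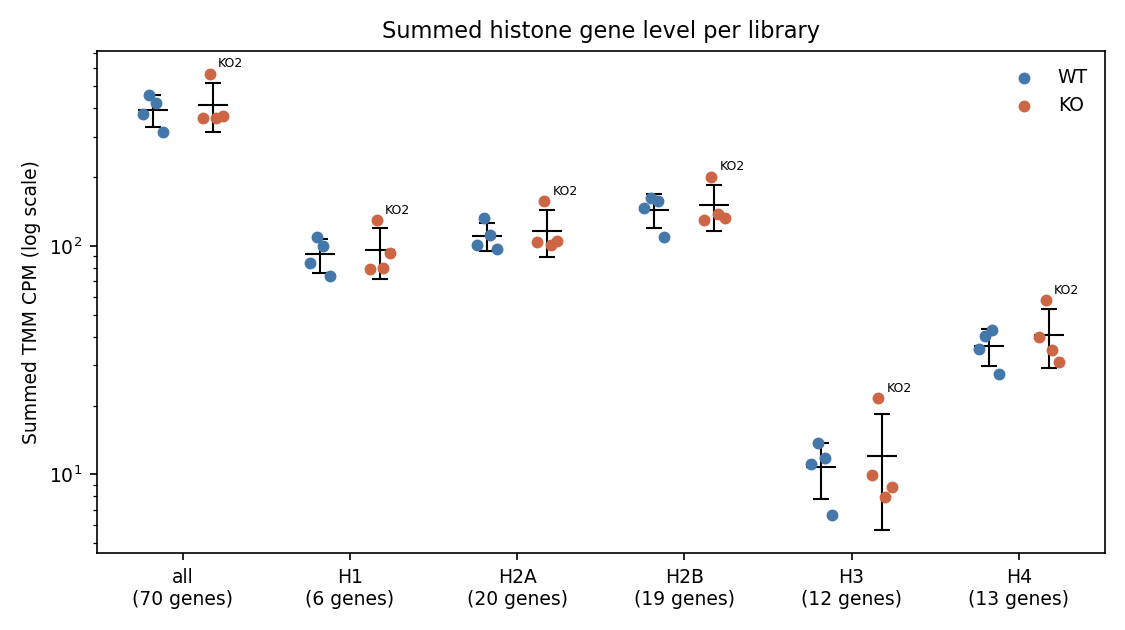
Summed TMM CPM (log axis) of all 70 histone genes and of each class, 1 point per library, with the group mean and SD in black. KO2 lies above all other libraries in each class, at 568 CPM for all 70 genes, and the other knockout libraries overlap the wild-type ones.

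A few genes carried most of the signal. The 5 highest held 54.3% of summed histone CPM and the 12 highest 80.6%, and 11 genes exceeded 10 CPM. These are levels per library and not per length.

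Hist3h2a (ENSMUSG00000078851.5, H2A; GRCm39 chromosome 11, 58845511 to 58847656) was the most abundant by CPM. It was at 43.1, 63.4, 55.5 and 56.0 CPM in WT1 to WT4 and at 50.7, 55.8, 55.0 and 53.9 CPM in KO1 to KO4. By gene counts it varied least over the libraries of all tested histone genes, by 1.47-fold from lowest to highest, and the groups overlapped. Its log2 fold change, KO over WT, was -0.02 ± 0.12 (SE). Trim17 overlaps 33.0% of its exonic bases, and reads that overlap both genes are not in the gene counts. By RSEM the gene was at 132 ± 27.0 RSEM CPM in WT and 137 ± 16.9 RSEM CPM in KO, from 100 in WT1 to 166 in WT4.

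Hist1h1c, which encodes the linker histone H1.2, was at 41.9, 57.6, 56.4 and 50.5 CPM in WT1 to WT4 and at 34.8, 60.7, 46.2 and 65.9 CPM in KO1 to KO4. The lowest and the highest value were both in knockout libraries, and the log2 fold change was 0.01 ± 0.19. Hist1h1b, which encodes H1.5, was at 19.1, 21.1, 20.4 and 10.9 CPM in WT1 to WT4 and at 21.2, 30.3, 16.9 and 13.97 CPM in KO1 to KO4. Here WT4 was low and KO2 high, and the log2 fold change was 0.20 ± 0.26. Hist1h1e, which encodes H1.4, was at 11.98 ± 3.02 CPM in WT and 11.7 ± 4.41 CPM in KO.

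Among H2B genes, Hist2h2be was at 56.6, 50.3, 40.0 and 34.1 CPM in WT1 to WT4 and at 51.6, 42.1, 45.5 and 33.7 CPM in KO1 to KO4. KO2 did not lead this gene, nor Hist3h2a and Hist1h1c, the genes above it by mean CPM. Hist1h2bc was at 38.9 ± 7.49 CPM in WT and 40.7 ± 9.13 CPM in KO. Hist3h2ba was at 11.3, 15.6, 16.9 and 16.9 CPM in WT1 to WT4 and at 14.6, 27.8, 14.1 and 20.002 CPM in KO1 to KO4. Its log2 fold change of 0.33 ± 0.23 had an unadjusted edgeR p of 0.171.

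The divergent pair whose shared promoter is printed above was expressed at close levels. Hist1h2ae was at 30.2, 32.1, 28.5 and 23.2 CPM in WT1 to WT4 and at 26.3, 46.0, 22.9 and 27.4 CPM in KO1 to KO4. Hist1h2bg was at 18.2, 30.7, 31.8 and 15.6 CPM in WT1 to WT4 and at 13.4, 46.5, 16.9 and 27.0 CPM in KO1 to KO4. Both peaked in KO2. Per kilobase of exon over all libraries they were the 2 highest histone genes, Hist1h2ae at 42.0 CPM per kb and Hist1h2bg at 40.5 CPM per kb, ahead of Hist1h2bc at 34.5 and Hist1h1c at 33.2 CPM per kb. Hist3h2a, the first by CPM, was at 25.2 CPM per kb.

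The H4 genes with the highest CPM were Hist1h4i, at 11.3 ± 1.83 CPM in WT and 14.4 ± 4.32 CPM in KO, and Hist1h4d, at 11.5 ± 1.76 and 12.6 ± 3.85 CPM. The H3 genes with the highest gene counts were lower: Hist1h3d was at 3.52 ± 1.42 CPM in WT and 2.90 ± 1.65 CPM in KO, and Hist1h3a at 1.73 ± 0.719 and 1.74 ± 1.02 CPM. Of all 12 H3 genes, none reached 10 CPM. By RSEM the H3 sum was 21.6 ± 5.22 RSEM CPM in WT and 20.4 ± 11.5 RSEM CPM in KO. The highest H3 gene was then Hist2h3b, at 5.13 ± 1.21 and 4.40 ± 2.94 RSEM CPM, which has no gene counts because another gene overlaps it.

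By gene counts, the more abundant genes tended to have long annotated ends. The 22 genes whose transcript runs more than 100 bases past the stem-loop had a median of 3.61 CPM, 8 of them exceeded 10 CPM, and together they held 61.0% of histone CPM. The 22 genes whose transcript ends within 100 bases had a median of 1.01 CPM and a highest value of 4.82 CPM. Per kilobase the medians were 2.17 and 2.08 CPM per kb, and the highest values 42.0 and 10.4 CPM per kb. The 27 genes with more than 150 annotated bases after the stop codon held 81.9% of histone CPM. Hist1h1b is an exception, with no annotated base after its stop codon and 19.2 CPM. By RSEM the pattern did not hold at the top. Hist1h2ap, whose transcript ends 3 bases past its stem-loop, was the highest histone gene by RSEM, at a mean of 992 RSEM CPM. Hist2h2aa1, which ends 35 bases past its stem-loop and has no gene counts, was at 21.7 RSEM CPM. The limits of 100 and 150 bases were chosen after the values were seen, and the part of gene length, read sharing and poly(A) priming in this pattern was not tested.

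**Figure D2:**
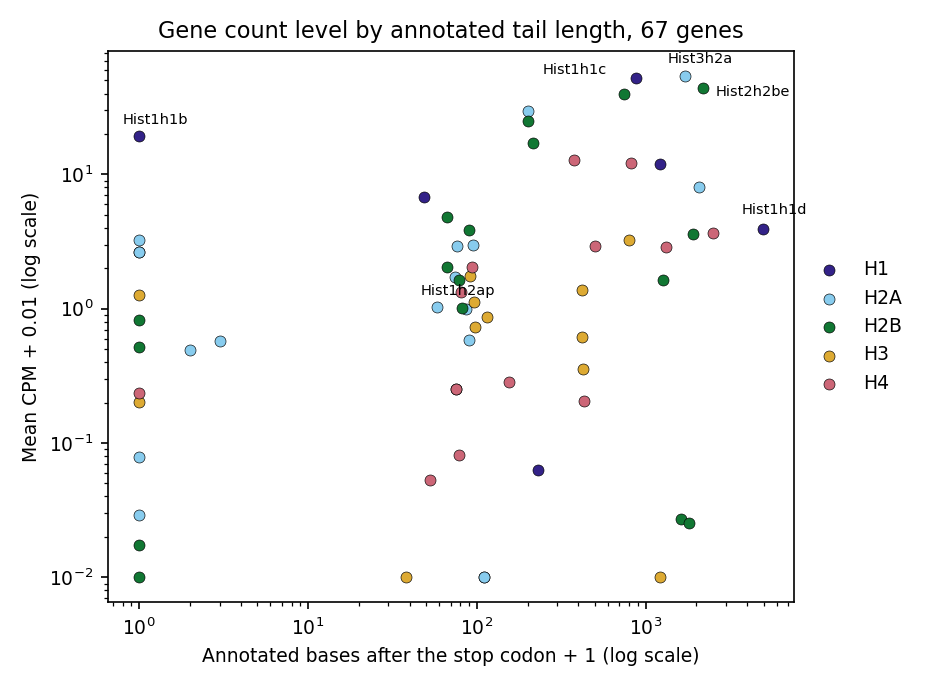
Mean CPM over 8 libraries (log axis) against the annotated bases after the stop codon (log axis), 1 point per gene, coloured by histone class, for the 67 genes with an annotated stop codon. The most abundant genes by gene counts, such as Hist3h2a and Hist1h1c, lie at the right, and Hist1h1b stands alone at the upper left.

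Of the 70 genes, 50 had enough counts to be tested, and 20 did not. No histone gene passed the threshold of an adjusted p of 0.05 in either direction (edgeR quasi-likelihood, Benjamini-Hochberg over 16352 genes), and of all genes tested 0% were called higher and 0% lower. DESeq2, limma-voom and the same test on RSEM expected counts also called no histone gene. At an unadjusted p under 0.05 there was 1 histone gene, the pseudogene Hist1h2aj, lower in KO, while 1.04% of all genes passed that limit as higher and 0.93% as lower. By DESeq2 1 histone gene, Hist1h3e, passed that limit, as higher, beside 0.91% of all genes higher and 0.974% lower. By limma-voom Hist1h3e passed, as higher, beside 2.02% and 3.42%, and by RSEM 0 passed, beside 0.792% and 1.09%. Without KO4, Hist1h3e and Hist1h3b passed as higher and Hist1h2aj as lower, beside 1.57% and 4.33% of all genes. Without WT4 and KO4, Hist1h3e passed as higher and Hist1h2aj as lower, beside 2.56% and 6.19%. By gene counts, none of the 50 had wild-type and knockout ranges that did not overlap, against 1.28% of all genes tested. By RSEM 1 of 46 did, Hist1h2bq, against 1.27% of all genes. It was at 1.84, 1.599, 2.76 and 1.51 RSEM CPM in WT1 to WT4 and at 0, 0, 1.15 and 1.28 RSEM CPM in KO1 to KO4, with a log2 fold change of -1.52 ± 0.76 and an unadjusted edgeR p of 0.0708. It shares 94.6% of its windows with other genes and has 6 gene counts over all libraries.

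Of the 50 estimates 37 lay above 0, with a median log2 fold change of 0.10, beside 51.7% of all genes and a median of 0.0075. By class, estimates above 0 were 4 of 5 for H1, 12 of 15 for H2A, 9 of 14 for H2B, 7 of 9 for H3 and 5 of 7 for H4. This rested on KO2: without that library 12 of 50 estimates lay above 0, with a median of -0.20. Without WT4 the count was 26 of 52, with a median of -0.0018. With both WT4 and KO4 left out it was 33 of 52 with a median of 0.05, and no histone gene was called, while 0.0736% of all genes were called lower.

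**Figure D3:**
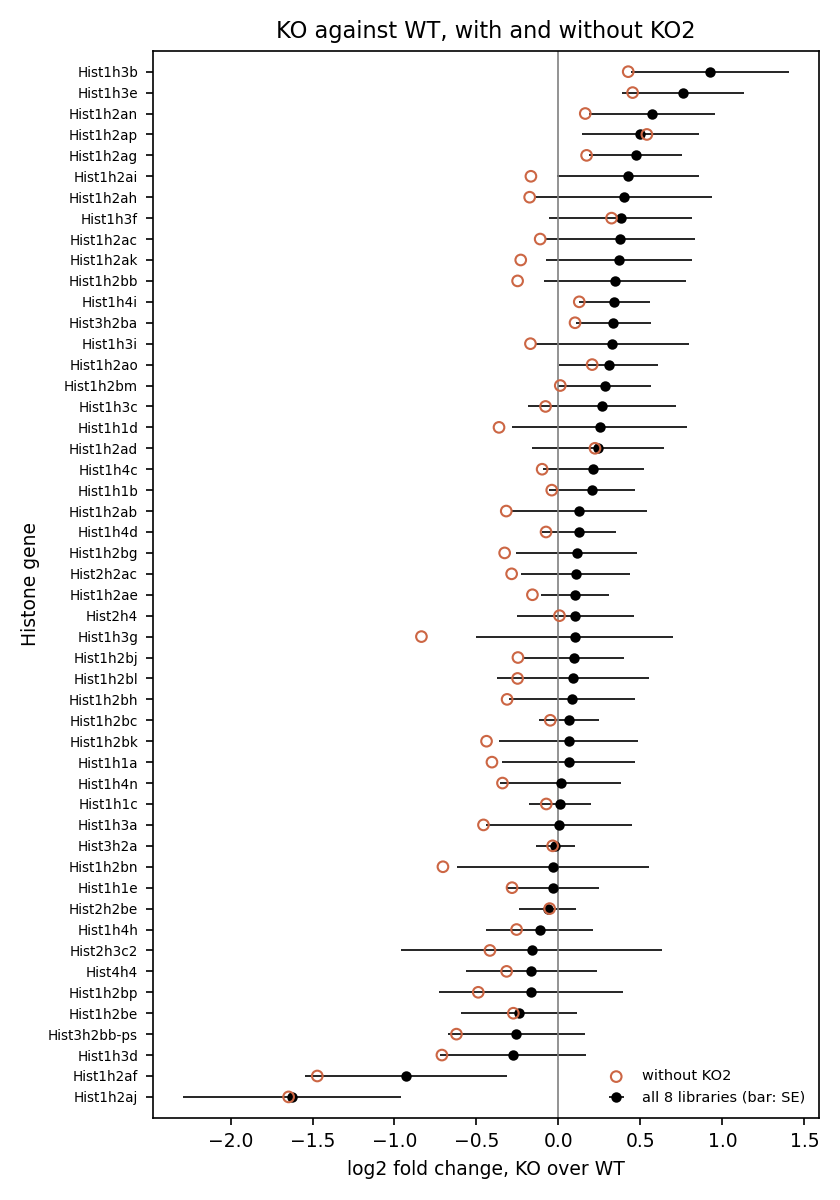
Log2 fold change, KO over WT, of the 50 tested histone genes with all 8 libraries (black, bar: SE) and without KO2 (open circles). With all libraries 37 estimates lie above 0, and without KO2 12 do. The estimate is lower without KO2 for 48 of the 50 genes.

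The genes with the smallest unadjusted p among the higher estimates were 2 H3 genes, Hist1h3e and Hist1h3b, followed by Hist1h2ag and Hist1h4i. Hist1h3e was at 0.754, 0.728, 1.29 and 1.31 CPM in WT1 to WT4 and at 1.34, 2.75, 1.72 and 1.15 CPM in KO1 to KO4. Its log2 fold change was 0.76 ± 0.37 with an unadjusted edgeR p of 0.0657. KO4 lay inside the wild-type range. Hist1h3b was at 0.501 ± 0.145 CPM in WT and 0.952 ± 0.596 CPM in KO, with a log2 fold change of 0.92 ± 0.48 and an unadjusted edgeR p of 0.0807. Hist1h2ag was at 2.44 ± 0.233 CPM in WT and 3.39 ± 1.31 CPM in KO.

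At the other end, Hist1h2aj was at 0.928, 7.55, 1.47 and 1.26 CPM in WT1 to WT4 and at 0.530, 0.956, 0.646 and 1.48 CPM in KO1 to KO4. WT2 alone was high, and the other wild-type libraries lay within or near the knockout range. The log2 fold change of -1.62 ± 0.67 had an unadjusted edgeR p of 0.0334, and without WT2 the fold change was -0.43 (unadjusted edgeR p of 0.347). Hist1h2aj shares 91.7% of its 100-base windows with other genes, and RSEM placed 19.4 expected counts on it in WT2, where the gene count was 498. Hist1h2af, at 0.625 ± 0.262 CPM in WT and 0.338 ± 0.241 CPM in KO, Hist1h3d, at -0.28 ± 0.45 on the log2 scale, and Hist1h2be, at -0.24 ± 0.35, had the next smallest p among the lower estimates.

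The spread within groups followed the library across genes of every class. KO2 was the highest library for 36 of the 50 tested genes, and 48 of them lay above their own mean there, by a median of 0.77 on the log2(CPM + 0.1) scale. WT4 was the lowest library for 22, and 5 lay above their mean there, with a median deviation of -0.56. WT2 had 41 genes above their mean and a median deviation of 0.27. KO1, KO3 and KO4 had medians of -0.10, -0.29 and -0.19. From lowest to highest library a gene varied by a median of 3.19-fold. These library counts were made for histone genes only. Without the same counts over all tested genes, they do not show a pattern particular to histone genes.

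**Figure D4:**
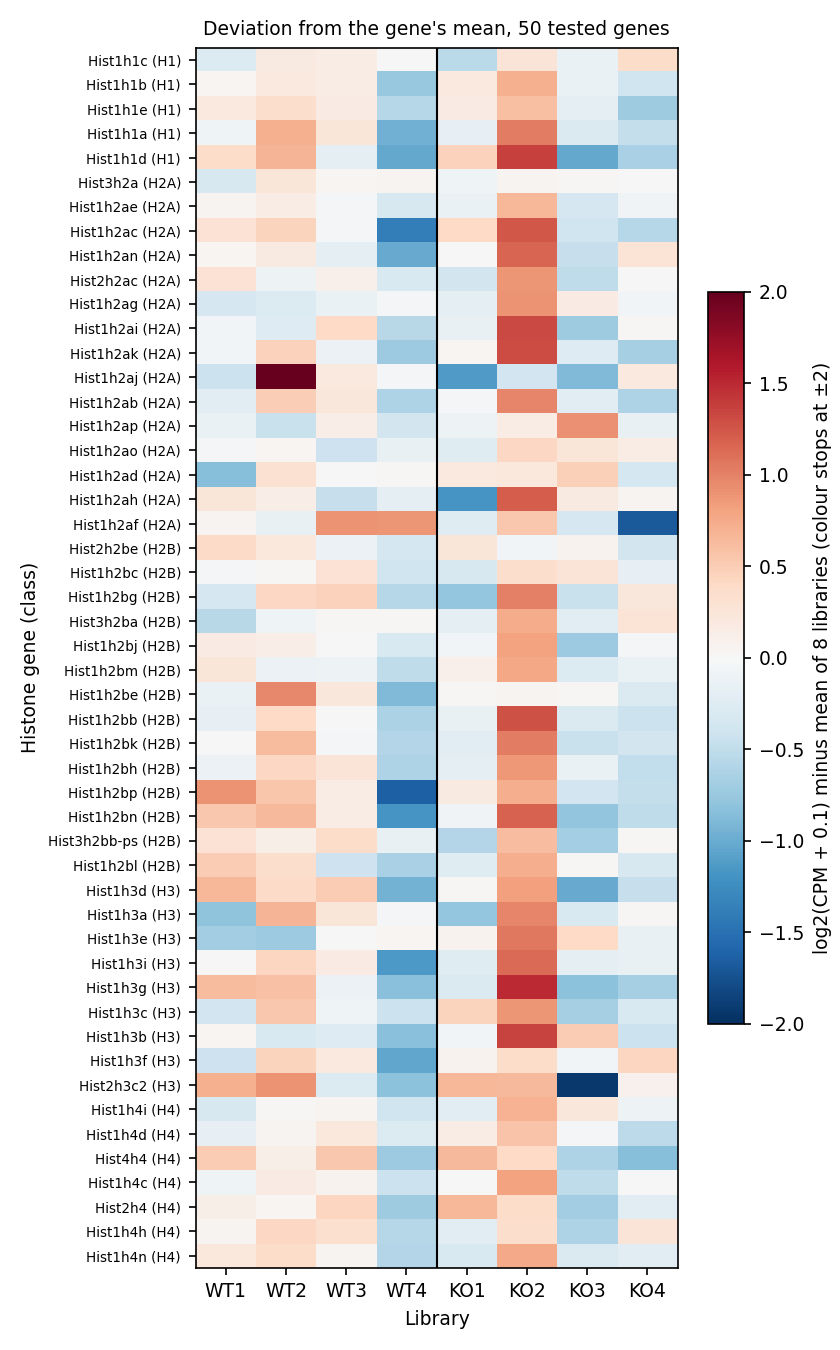
Deviation of log2(CPM + 0.1) from the gene's mean over 8 libraries for the 50 tested histone genes, ordered by class and level, with WT and KO libraries split by a black line. The KO2 column is red for 48 genes and in WT4 5 genes lie above their mean, while Hist1h2aj is high in WT2 alone.

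The S phase list, 30 genes of DNA replication such as Mcm6, a subunit of the replicative helicase, was also highest in KO2. Its summed level was 7152 to 7482 CPM in WT, 8193 CPM in KO2 and 6865 to 7873 CPM in the other knockout libraries. In WT4 it was 7197 CPM, inside the wild-type range, although histone RNA was lowest there. Of the 12 marker lists, 5 were highest in KO2: gate (10313 CPM), stem and multipotent progenitor (1981 CPM), B cell and pro-B (509.7 CPM), neutrophil (299.9 CPM) and megakaryocyte and platelet (12.7 CPM). ILC2 markers were lowest in KO2, at 177 CPM. In WT4, plasmacytoid dendritic cell (5878 CPM), plasma cell (1269 CPM) and NK cell markers (118 CPM) were highest, and stem and multipotent progenitor (1345 CPM) and T cell markers (378 CPM) lowest. The part of cell cycle or cell makeup in the library pattern was not tested.

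Gene counts and RSEM, which shares out reads that match several genes, gave different pictures of the H2A class. Per the featureCounts defaults, a read that aligns to several places or overlaps 2 genes is left out of the gene counts. Over WT1 to WT4 the summed RSEM CPM of the 70 genes was 1322, 1368, 1652 and 1364, and over KO1 to KO4 it was 1459, 2359, 1468 and 1261. The means were 1426 ± 152 and 1637 ± 491 RSEM CPM, with overlapping ranges and KO2 again the highest. H2A was 78.6% of the wild-type sum by RSEM and 28.1% by gene counts.

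Most of the RSEM level of H2A lay on Hist1h2ap (ENSMUSG00000094777.3, H2A; GRCm39 chromosome 13, 22017196 to 22017677, minus strand). With it left out, H2A was at 229 RSEM CPM in WT and 42.8% of the remaining wild-type sum, still above its share by gene counts. Hist3h2a was at 132 ± 27.0 RSEM CPM in WT, against 54.5 CPM by gene counts. Over WT1 to WT4 Hist1h2ap received 30, 45, 35 and 51 gene counts, and over KO1 to KO4 it received 32, 35, 62 and 57. Its RSEM expected counts were 7688 to 16460, or 830, 771, 1079 and 887 RSEM CPM over WT1 to WT4 and 968, 1621, 1012 and 765 RSEM CPM over KO1 to KO4. KO2 was the highest and KO4 the lowest, and the groups overlapped.

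By the authors' TPM, a relative abundance that allows for transcript length, Hist1h2ap was at 3459 ± 482 in WT and 4277 ± 1266 in KO. It ranked 17 among all genes by mean TPM, and the next histone gene, Hist3h2a, was at 94.3 TPM. Hist1h2ap alone held 62.5% of summed histone RSEM CPM in WT and 66.7% in KO. Its log2 fold change by RSEM was 0.29 ± 0.21, with an unadjusted edgeR p of 0.186. Without it the RSEM sums were 535 ± 59.6 CPM in WT and 545 ± 130 CPM in KO.

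Of the 100-base windows of the Hist1h2ap transcript, 92.2% occur in another gene, chiefly Hist1h2ao, whose site is printed beside it above. The RSEM value of Hist1h2ap is therefore an allocation between near-identical genes, and is uncertain for either one. Over all genes with at least 100 counts, the ratio of RSEM to gene counts had a median of 0.229, and that of Hist1h2ap, at 264, ranked 4 of 16499.

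Among histone genes with at least 100 counts, the median ratio of RSEM to gene counts was higher in groups that share more sequence, with exceptions. The median was 0.217 (0.155 to 0.272) over 14 genes that share under 10% of their windows, 0.311 (0.216 to 0.664) over 18 that share 10 to 50%, and 0.485 (0.110 to 264) over 18 that share more than 50%. Without Hist1h2ap the last group had a median of 0.468 and a highest value of 0.803. The 4 highest ratios among these genes belonged to Hist1h2ap, Hist1h2ag (0.803), Hist1h4n (0.796) and Hist1h2bk (0.739). The 4 lowest belonged to Hist1h2aj (0.110), Hist1h2af (0.134), Hist3h2bb-ps (0.155) and Hist1h4d (0.184). The first 2 share 91.7% and 65.3% of their windows, so that shared sequence went with low as well as high ratios.

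A count of 0 in all 8 libraries was found for 5 Hist2 genes: Hist2h2aa1, Hist2h2aa2, Hist2h2bb, Hist2h3b and Hist2h3c1. All 5 lie wholly under another gene of the count annotation, so that a read there overlaps 2 genes and is not counted. RSEM gave values for all 5, the highest for Hist2h2aa1, at 22.4 ± 4.64 RSEM CPM in WT and 20.9 ± 6.24 RSEM CPM in KO, and a mean of 66.0 TPM. For Hist2h2aa2 the mean was 24.6 TPM, for Hist2h3b 18.3 TPM and for Hist2h3c1 0.001 TPM. Of the 100-base windows of Hist2h2aa2, 100% also occur in Hist2h2aa1, so the RSEM split between them is uncertain. Hist2h2aa2 was at 0 RSEM CPM in WT1 and KO1, at 14.2 in WT4 and at 15.2 in KO2. The sums from gene counts by class and cluster leave these 5 genes out.

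**Figure D5:**
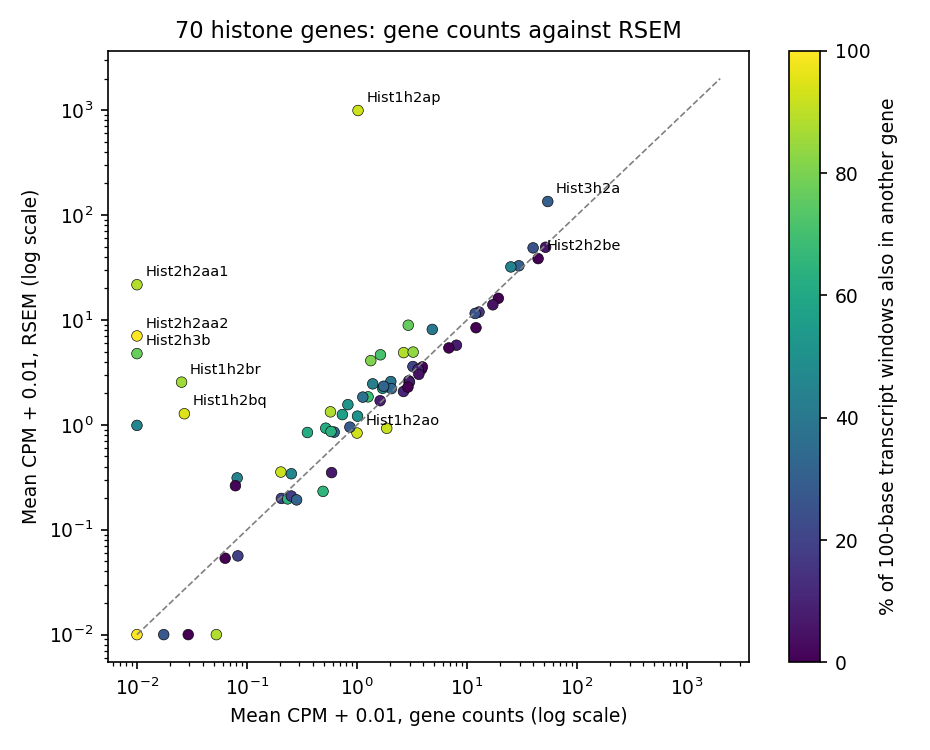
Mean CPM + 0.01 from gene counts against mean CPM + 0.01 from RSEM (both log axes) for the 70 genes, coloured by the percent of 100-base transcript windows also present in another gene; the dashed line marks equality. Hist1h2ap stands far above the line, and the Hist2 genes with 0 gene counts lie at the left edge.

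Genes that make, process and carry histones showed no called change. Of the 11 histone genes listed as replication-independent, none passed the test, 10 estimates lay above 0 and the median log2 fold change was 0.15. Over all genes tested, 51.7% of estimates lay above 0, with a median of 0.0075. H2afz, which encodes H2A.Z, was at 738 ± 100 CPM in WT and 882 ± 124 CPM in KO with an unadjusted edgeR p of 0.0769. H3f3b, one of the genes for H3.3, was at 2977 ± 794 and 3480 ± 1235 CPM. H1f0, which encodes the linker histone of resting cells, was at 63.2 ± 33.9 and 51.2 ± 15.5 CPM.

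Of 17 genes of histone mRNA 3′ processing and decay, none passed, and 11 estimates lay above 0 with a median of 0.03. Slbp, the stem-loop binding protein, was at 423, 378, 412 and 484 CPM in WT1 to WT4 and at 412, 488, 516 and 479 CPM in KO1 to KO4. The groups overlapped, and the log2 fold change was 0.16 ± 0.11. Eri1, an exonuclease that trims histone mRNA ends, was at 117 ± 34.0 CPM in WT and 101 ± 20.2 CPM in KO. Zcchc6 and Zcchc11 were not found under these symbols.

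Of 15 genes of histone gene transcription, none passed, and 7 estimates lay above 0 with a median of -0.0083. Npat was at 65.9, 67.2, 55.6 and 64.1 CPM in WT1 to WT4 and at 63.5, 65.7, 69.0 and 69.9 CPM in KO1 to KO4, so that KO2 was not apart for it. Cdk2, the kinase that activates NPAT, was at 268 ± 12.02 CPM in WT and 290 ± 29.2 CPM in KO, and its partner Ccne2 at 85.2 ± 3.79 and 97.9 ± 18.1 CPM. E2f4, a repressor of cell cycle genes, was at 28.3 ± 1.70 and 25.3 ± 1.84 CPM.

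Of 26 histone chaperone and import genes, none passed, and 15 estimates lay above 0 with a median of 0.01. Npm1, a nucleolar chaperone, was at 696 ± 60.2 CPM in WT and 735 ± 51.9 CPM in KO. Cabin1, a partner of the HIRA complex that deposits H3.3, was at 96.6 ± 15.9 and 79.9 ± 7.71 CPM, with an unadjusted edgeR p of 0.0562. Dnajc9, a co-chaperone of H3 and H4, was at 391 ± 21.6 and 436 ± 38.9 CPM. Of the 30 S phase genes, none passed, and 27 estimates lay above 0 with a median of 0.06, beside 51.7% of all genes. The sum of this list was highest in KO2 (8193 CPM), and its estimates without KO2 are not given here. Mcm6 was at 1041 ± 46.5 CPM in WT and 1067 ± 60.5 CPM in KO, Gins1, a subunit of the helicase complex, at 36.2 ± 0.653 and 41.6 ± 3.59 CPM, and E2f8, a repressor of S phase genes, at 67.1 ± 13.4 and 62.3 ± 8.75 CPM.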

How the data were processed

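RNA-seq of 8 libraries was used, 4 WT and 4 KO, grouped by title. The authors deposited whole-number gene counts from featureCounts 1.6.4, per the file headers, with a command that sets an annotation named GRCm39, an output and threads only. The submitters' processing notes name mm10, STAR 2.6.0a, Picard 2.19 and RSEM 1.3.1. The authors also deposited RSEM expected counts, rounded here before testing, and TPM. Strand was not used in counting, so overlapping genes cannot be told apart.

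Counts were tested with edgeR 4.0.16 in R 4.3.3 (filterByExpr, TMM, quasi-likelihood test, Benjamini-Hochberg, threshold 0.05) and checked on simulated data. DESeq2 1.42.0 and limma 3.58.1 were alternatives, beside other scalings, filters, RSEM, a replicate block, an Xist covariate and libraries left out. Sums over genes got no test. Symbols matched 97.1% of identifiers. Sequences are from GENCODE M21 (GRCm38) and RefSeq (GRCm38.p6), and gene positions from the count files.

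The genes and lists were chosen with earlier results of these data known. Named genes were the 12 with the highest CPM, the 4 with the smallest unadjusted p in each direction, the 2 highest of each class, the highest of each cluster, the 4 highest and 4 lowest ratios of RSEM to counts among those with at least 100 counts, and, per list, the smallest p in each direction and the highest CPM. Genes at 0, or printed for shared sequence, were added after their values were seen.

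Deviations of the same-numbered pairs 1 and 2 correlated more than those of any differently numbered pair, but pairs 3 and 4 did not. The numbers were therefore not taken as pairs, and a replicate block was run as an alternative.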

Additional observations from a re-analysis of the deposited data

Results flagged for a closer look

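In groups of 4 libraries, 74 sets of values were checked for 1 library far from the other 3 (Dixon's test at its 95% critical value), and 10 stood out; chance gives about 5% of sets. KO2 accounted for 7 of them. The summed level of all 70 histone genes was 568 CPM in KO2, against 362 to 370 CPM in the other knockout libraries. By class KO2 was apart for H2A (158 against 101 to 105 CPM), H2B (201 against 130 to 139 CPM) and H3 (21.5 against 7.96 to 9.90 CPM), and by cluster for Hist1 (427 against 232 to 254 CPM). Among single genes KO2 was apart for Hist1h2bk (3.15 against 1.08 to 1.28 CPM) and Hist1h4n (2.22 against 1.004 to 1.09 CPM). Sums that share genes are not independent of each other.

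Hist1h2aj was at 7.55 CPM in WT2, against 0.928 to 1.47 CPM in the other wild-type libraries. Hist1h2be was at 2.75 CPM in the library labelled KO4, against 3.43 to 3.52 CPM in the other knockout libraries. By RSEM the summed level was 1652 CPM in WT3, against 1322 to 1368 CPM in the other wild-type libraries. The causes were not tested.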

How the results depend on the processing

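No histone gene and no list gene was called under any alternative run: other scalings, filters, DESeq2, limma-voom, RSEM, an Xist covariate, the replicate block, 1 library left out, or WT4 and KO4, or WT2 and KO2, left out together (these pairs, and RSEM without Hist1h2ap, were chosen after seeing the data). The log2 ratio of summed histone CPM, 0.08, ranged from -0.11 to 0.15 with 1 library left out; it was 0.20 by RSEM, 0.028 by RSEM without Hist1h2ap and -0.037 without WT2 and KO2. The summed H2A ratio moved from 0.08 to 0.37 by RSEM without WT4 and KO4. Estimates above 0 numbered 37 of 50, but 23 of 50 with limma-voom and 17 of 50 without WT2 and KO2. With the replicate block they numbered 34 of 50, with 0 calls. Same-numbered libraries correlated at 0.362, 0.309, -0.030 and 0.122, and differently numbered WT and KO libraries at -0.249 to 0.203.

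For the 25 named genes, 419 of 492 recomputed log2 fold changes kept their sign, 73 did not, and none passed the threshold; those that changed sign follow. With library size alone, Hist1h1c was -0.024, Hist1h3a -0.034 and Hist1h4n -0.024. With no filter, Hist1h1c was -0.0045 and Hist1h3a -0.0084. With a mean CPM of at least 1, Hist1h1c was -0.0020 and Hist1h3a -0.0070. With limma-voom, Hist1h1c was -0.091, Hist1h2ae -0.055, Hist1h2bg -0.19, Hist1h2bk -0.19, Hist1h3a -0.16, Hist1h4n -0.17 and Hist3h2a 0.012. By RSEM, Hist1h1c was -0.032, Hist1h2aj 1.07, Hist1h2bg -0.021, Hist3h2a 0.044 and Hist4h4 0.070. By RSEM with WT4 and KO4 left out, Hist1h1c was -0.19, Hist1h2bg -0.18, Hist3h2a 0.12 and Hist4h4 0.10. With the replicate block, Hist1h1c was -0.021, Hist1h3a -0.037 and Hist1h4n -0.0086. With the Xist covariate, Hist1h1e was 0.078, Hist1h2be 0.056 and Hist3h2a 0.030. By counts without WT4 and KO4, Hist1h1c was -0.14, Hist1h2bg -0.072, Hist1h3a -0.016 and Hist1h4n -0.076. Without WT2 and KO2, Hist1h1c was -0.026, Hist1h2ae -0.11, Hist1h2bc -0.047, Hist1h2be 0.12, Hist1h2bg -0.20, Hist1h2bk -0.17, Hist1h3a -0.20, Hist1h4d -0.056, Hist1h4n -0.22 and Hist3h2a 0.037.

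With 1 library left out, the lowest and highest values were -0.041 and 0.35 for Hist1h1b, -0.13 and 0.15 for Hist1h1c, -0.28 and 0.15 for Hist1h1e, -0.11 and 0.59 for Hist1h2ac, -0.16 and 0.22 for Hist1h2ae, -0.050 and 0.18 for Hist1h2bc, -0.48 and 0.15 for Hist1h2be and -0.33 and 0.32 for Hist1h2bg. They were -0.44 and 0.33 for Hist1h2bk, -0.46 and 0.27 for Hist1h3a, -0.076 and 0.29 for Hist1h4d, -0.34 and 0.14 for Hist1h4n, -0.18 and 0.051 for Hist2h2be, -0.12 and 0.055 for Hist3h2a and -0.47 and 0.051 for Hist4h4. The causes were not tested. Of the 20 untested genes, 5 are at 0 under an overlapping gene, so depth is not the limit there.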
